A study of Urocitellus parryii with 44 samples.

Results

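The catalytic head of the mitochondrial ATP synthase was examined in brown adipose tissue of arctic ground squirrels (Urocitellus parryii). It comprises 3 of the 11626 genes with a named probe. They are read by 13 of the 38400 probes, all those whose only annotated gene is Atp5a1 (alpha subunit), Atp5b (beta subunit) or Atp5c1 (gamma subunit). Atp5a1 had 3 probes, Atp5b 6 and Atp5c1 4, and all 13 had enough values to be compared. The groups were 5 squirrels torpid in winter and 3 squirrels active in summer (August). The labels name no allele, drug or other treatment for either group, and no age. The RNA carried a radioactive phosphorus label and was read on 4 membranes of mouse cDNA probes, MA07, MA08, MA10 and MA11. Torpid animal 5 and summer animals 1 and 2 were each measured in duplicate from a split RNA, and enter as the mean of both. Season cannot be told apart from activity state.

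ATP synthase makes ATP from ADP and phosphate with the energy of protons flowing back into the mitochondrial matrix. Alpha and beta subunits alternate in a ring that carries the catalytic sites, most of each site lying on beta, and gamma is the shaft that turns inside the ring. In brown fat the uncoupling protein UCP1 lets protons return without passing through the synthase, and brown adipocytes of mice and rats hold little ATP synthase relative to their respiratory chain. In mice that shortage has been tied to the c subunit of the membrane ring, encoded by Atp5g1.

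All levels below are log2 of spot intensity over the median of its column, so that 0 is the level of the median probe, and a level on one probe is not compared with that on another. Differences are torpor minus summer on the same scale, with the standard error (SE) of a limma fit across all probes; the number of arrays limits the precision. The genes were proposed with earlier results of this same contrast in view, so their differences are descriptions without a test. A probe was called at a Benjamini-Hochberg adjusted p under 0.05 over 37848 tested probes, which 0.309% of them reached.

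Brightness and group were linked on these membranes. Among the 288 brightest probes of each membrane, those above the 97th signal percentile, the median difference stood at 0.40 (MA07), 0.52 (MA08), -0.24 (MA10) and -0.50 (MA11), against 6.5e-05 over all tested probes. The second duplicate of summer animal 2 was also lower than the first in this bright class, by a median of -0.71 on MA07, -0.71 on MA08 and -0.76 on MA11, and higher by 0.73 on MA10. The part of these shifts in the results below was not tested. A list of brown adipocyte genes was measured by 11 probes of 7 of the 14 genes listed. They were Cidea, Dio2, Elovl3, Lipe, Pparg, Ppargc1a and Prdm16. How particular each is to brown adipocytes was not tested. UCP1 itself was not analysed here. Of the 10 testable probes, 8 had negative differences. Limma called 0 of the 10, beside 0.309% of all probes. An unadjusted p under 0.05 was also reached by 0, beside 6.39% of all probes higher and 5.18% lower.

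Atp5a1, which encodes the alpha subunit, was higher in every torpid animal than in every summer animal with all 3 of its probes, by 2.50 to 2.92. On MA07 (probe 7397) the levels were 5.17, 4.73, 4.70, 4.97 and 4.42 in torpid animals 1 to 5, against 2.59, -0.06 and 3.10 in summer animals 1 to 3. The groups did not overlap, and summer animal 2 lay far below the other summer animals. The means were 4.80 ± 0.28 in torpor (SD, n = 5) and 1.88 ± 1.70 in summer (SD, n = 3), a difference of 2.92 ± 0.58 (SE), or 7.58-fold.

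The MA08 probe of Atp5a1 (6329) read 5.46, 5.07, 4.99, 4.90 and 3.88 in torpor, against 3.27, 0.67 and 3.15 in summer, a difference of 2.50 ± 0.54 (SE). The MA11 probe (2429) read 6.06, 6.23, 5.71, 6.37 and 5.54 in torpor, against 3.94, 1.37 and 4.27 in summer, a difference of 2.79 ± 0.53 (SE). The 3 probes come from different clones on separately hybridised membranes, and each ranked the summer animals with animal 2 lowest. Without summer animal 2 the differences were 1.95, 1.65 and 1.88 on MA07, MA08 and MA11. In bulk tissue, fewer cells of a type and less RNA per cell cannot be told apart.

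**Figure D1:**
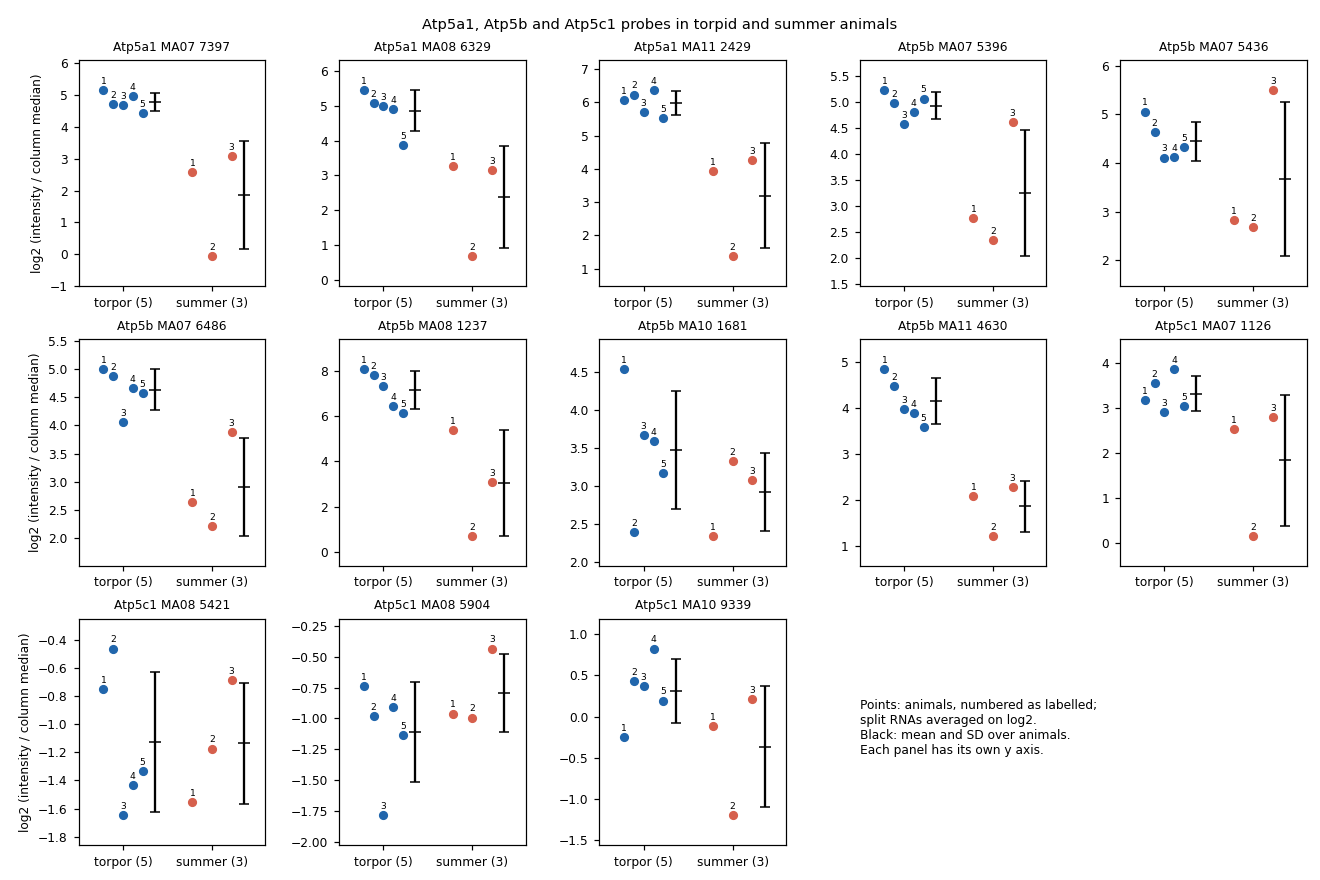
Levels (log2 of intensity over column median, y axis, scaled separately in each panel) of the 13 Atp5a1, Atp5b and Atp5c1 probes in torpid (blue, n = 5) and summer animals (red, n = 3), with animal numbers as labelled and black marks for mean and SD. All 3 Atp5a1 panels, 3 of the 6 Atp5b panels and 1 of the 4 Atp5c1 panels show torpid animals entirely above summer animals.

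Atp5b, the gene of the catalytic beta subunit, had positive differences with all 6 probes, from 0.55 to 4.08, and 3 of the 6 separated the groups completely. Its MA11 probe (4630) read 4.84, 4.47, 3.98, 3.89 and 3.59 in torpor, against 2.08, 1.23 and 2.29 in summer. No torpid value came within 1 log2 unit of a summer value. The means were 4.15 ± 0.50 in torpor (SD, n = 5) and 1.87 ± 0.56 in summer (SD, n = 3), and the difference was 2.29 ± 0.33 (SE), or 4.88-fold. This was the only one of the 13 probes that the limma fit called, beside 0.309% of all probes. The call was lost without torpid animal 2 (adjusted p = 0.066 by limma), with cyclic loess (adjusted p = 0.087 by limma) and with the replicate number as a block (adjusted p = 0.054 by limma).

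The largest difference belonged to the MA08 probe of Atp5b (1237), at 4.08 ± 0.82 (SE), or 16.9-fold. Its levels were 8.06, 7.81, 7.33, 6.43 and 6.11 in torpor, against 5.39, 0.73 and 3.09 in summer. The summer animals were spread over more than 4 log2 units here, so that the summer mean of 3.07 ± 2.33 (SD, n = 3) says little about any 1 animal. Without summer animal 2 the difference was 2.91.

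On MA07, 3 Atp5b clones gave a different picture, because summer animal 3 was as bright as the torpid animals or nearly so. Probe 5396 read 5.24, 4.99, 4.57, 4.81 and 5.07 in torpor, against 2.77, 2.34 and 4.63 in summer (difference 1.69 ± 0.44, SE). Probe 5436 read 5.05, 4.63, 4.11, 4.12 and 4.33 in torpor, against 2.82, 2.69 and 5.50 in summer (difference 0.78 ± 0.56, SE). In these clones summer animal 3 fell inside or above the torpid range, and the groups overlapped. The third clone, probe 6486, separated the groups narrowly, with a lowest torpid value of 4.06 and a highest summer value of 3.89 (difference 1.73 ± 0.36, SE). With cyclic loess between columns the 3 differences were 0.83, -0.06 and 0.91, so that the direction of probe 5436 turned. Without summer animal 2 the same probe gave 0.29.

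The MA10 probe of Atp5b (1681) showed the smallest difference of the 6, at 0.55 ± 0.46 (SE), and its groups overlapped. It read 4.54, 2.40, 3.67, 3.59 and 3.17 in torpor, against 2.35, 3.33 and 3.09 in summer. Here summer animal 2 was the highest of the summer animals, whereas it was the lowest with each of the other 5 Atp5b probes. On MA10 the brightest probes as a class stood lower in torpor, at a median of -0.24.

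Atp5c1, encoding the gamma shaft, had differences of both signs, from -0.31 to 1.48. Its MA07 probe (1126), at signal percentile 97.4, read 3.18, 3.55, 2.90, 3.86 and 3.05 in torpor, against 2.54, 0.16 and 2.79 in summer. The groups did not overlap, but the lowest torpid animal exceeded summer animal 3 by little. The difference was 1.48 ± 0.52 (SE), and 0.64 without summer animal 2.

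The MA10 probe of Atp5c1 (9339) had a difference of 0.68 ± 0.41 (SE), with torpid values from -0.25 to 0.83 and summer values from -1.20 to 0.21. Both MA08 spots carry the same clone and were dim, at signal percentiles 9.04 and 11.9. They gave 0.01 ± 0.31 and -0.31 ± 0.26 (SE), with torpid values from -1.78 to -0.46 and summer values from -1.55 to -0.43. No difference between the groups was detectable with the dim clone, while a bright clone of the same gene gave 1.48.

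Across the 3 genes, 12 of 13 differences were positive, beside 50.0% of all tested probes. Every torpid animal lay above every summer animal with 7 of 13 probes, beside 4.37% of all. The median difference was 1.69. The tested probes as a whole were not matched to the head probes for brightness. In the class of the 288 brightest probes, positive differences made up 79.9% (MA08), 69.4% (MA07), 42.4% (MA10) or 22.2% (MA11). Since the contrast was known when the genes were chosen, the shares of the head probes are not evidence about the head. The 7 separated probes all lay above the 95th signal percentile, while the 6 that overlapped ran from percentile 9.04 to 99.4.

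With most head probes, the summer animals differed more among themselves than the torpid animals did. The median SD over the 13 probes was 0.40 in torpor and 1.22 in summer, against 0.35 and 0.36 over all tested probes, and the torpor SD was the smaller with 10 of the 13. An SD over bright probes alone was not taken. Bright probes of other synthase genes varied: the summer SD was 1.55 for Atp5g3 (MA08) and 1.55 for Atp5l (MA07). It was 0.33 for Atp5g1 (MA07) and 0.24 for Atp5l (MA10). Summer animal 2 was the lowest summer animal with 11 of the 13 probes. Relative to the torpor mean it stood at -4.86, -4.19 and -4.61 for the Atp5a1 probes on MA07, MA08 and MA11, and at -6.42 for the Atp5b probe on MA08. The 288 brightest probes stood at medians of -0.83, -0.80 and 0.75 in this animal on MA07, MA08 and MA11. On MA11 the head transcripts of summer animal 2 were low while bright probes in general were high. Summer animals 1 and 3 were also below the torpor mean with all 3 Atp5a1 probes, animal 1 at -2.20, -1.59 and -2.04 and animal 3 at -1.70, -1.71 and -1.71. With animal 2 set aside, 7 of 13 probes had every torpid animal above both other summer animals. Animal 2 was the lowest summer animal with each of these probes, so leaving it out could not undo their separation.

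**Figure D2:**
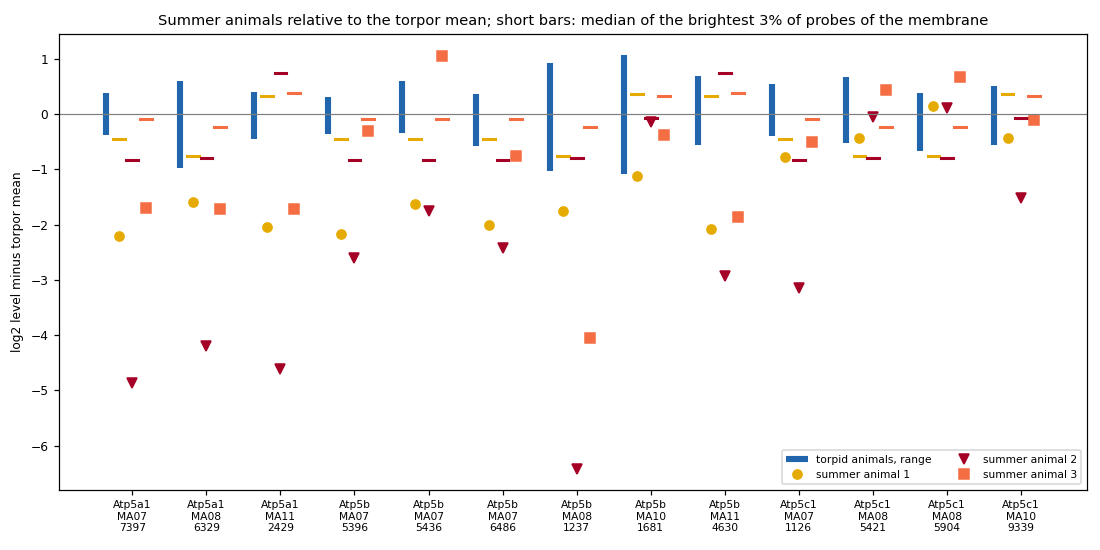
Level of each summer animal minus the torpor mean (log2, y axis) for the 13 probes, beside the range of the 5 torpid animals (blue bars), with short coloured bars for the median of the 288 brightest probes of that membrane in the same summer animal. Summer animal 2 is lowest for 11 of 13 probes and reaches -6.42 for Atp5b on MA08, and on MA11 the brightest probes stand above the torpor mean while Atp5a1 and Atp5b stand below it.

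Duplicate measurements of the split RNAs show how far these values moved between measurements of 1 RNA. For torpid animal 5 the second duplicate of the 13 probes differed from the first by -0.97 to 0.71, and for summer animal 1 by -0.06 to 1.44 over the 12 probes with both values. Summer animal 2 had the widest range, -3.69 to 2.05. Its Atp5b probes on MA07 read 4.18, 3.84 and 3.30 in the first duplicate and 0.49, 1.54 and 1.12 in the second, for probes 5396, 5436 and 6486. The same RNA thus gave a level near those of torpor in one measurement and far below them in the other. Over all MA07 probes the median absolute difference between these duplicates was 0.36, and the 95th percentile was 1.38. With the first duplicate alone for summer animal 2, the Atp5b differences on MA07 were 1.08, 0.40 and 1.36, and with the second alone 2.31, 1.16 and 2.09.

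The low values of summer animal 2 for Atp5a1 appeared in both duplicates. They were 0.55 and -0.68 on MA07, 1.04 and 0.31 on MA08, and 1.86 and 0.88 on MA11, all under the lowest torpid value of the same probe. The Atp5b probe on MA08 likewise read 0.66 and 0.79. For Atp5c1 on MA07 the duplicates read -0.20 and 0.52, also under every torpid animal.

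**Figure D3:**
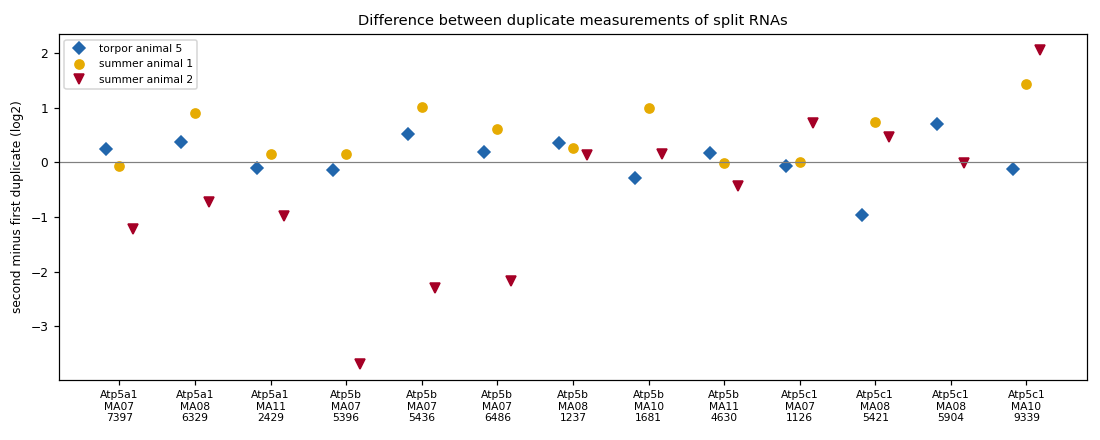
Second minus first duplicate (log2, y axis) of the 3 split RNAs for each of the 13 probes; points at 0 mean equal values, and summer animal 1 has no point for Atp5c1 MA08 5904 because its first value is empty. The 3 Atp5b probes on MA07 in summer animal 2 lie at -3.69, -2.30 and -2.18, while torpid animal 5 stays between -0.97 and 0.71.

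The rest of the ATP synthase was read from a list of stalk, ring, accessory, inhibitor and assembly genes, 38 probes of 18 genes, of which 37 could be tested. By limma 0 of the 37 were called in either direction, beside 0.309% of all probes, and 5 had an unadjusted p under 0.05, all higher in torpor, where 6.39% of all probes stood. The median difference was 0.20, against 1.69 for the head and 6.5e-05 for all tested probes. The sets were not matched for brightness, which was linked to group on these membranes. Whether head and remaining subunits differ was not tested.

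Subunits that sit beside gamma in the central stalk had 1 positive and 4 negative differences. Atp5d, the delta subunit, gave -0.17, -0.55, -0.12 and -0.70 with 4 probes, and Atp5e, the epsilon subunit, 0.08. The MA08 probes of Atp5d, from 1 clone, read highest in summer animal 3. None of these 5 probes had an unadjusted p under 0.05.

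The peripheral stalk holds the head still while the shaft turns. Of its 12 probes 9 were positive, with a median of 0.26. Atp5pb, the b subunit, gave 1.45 ± 0.44 (SE) with 1 clone on MA08 (torpor 1.998 ± 0.54, SD, n = 5; summer 0.54 ± 1.07, SD, n = 3) and -0.12 to 0.43 with 4 other probes. Atp5h, the d subunit, gave 0.94 on MA07, and 0.26 and 0.52 on MA10. Atp5o, the subunit that links stalk and head, gave 0.10, and Atp5j ran from -0.79 to 0.43.

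In the membrane ring, which protons turn, Atp5g1 gave -0.24 ± 0.20 (SE) on MA07 and -0.28 ± 0.37 (SE) on MA10. Its MA07 levels were 2.63 ± 0.21 in torpor (SD, n = 5) and 2.87 ± 0.33 in summer (SD, n = 3), with overlapping groups. The MA07 difference of Atp5g1 was smaller than the SD of its summer animals, on the membrane where Atp5a1 gave 2.92. Atp5g3, another gene of the c subunit, gave 1.40 ± 0.55 (SE) on MA08, where summer animal 2 was again the lowest.

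Accessory membrane subunits had 8 positive values among 10 probes and a median of 0.55. Atp5j2, the f subunit, gave 1.02, 0.62 and 0.67 on MA07, MA08 and MA11. Its MA11 spot was dim (signal percentile 4.29) and had values in only 2 summer animals. Atp5l, the g subunit, gave 1.05 on MA07 and -0.27 on MA10. Atp5md was the only gene of these lists with a probe that separated the groups completely, 0.94 ± 0.36 (SE) on MA10, and its second probe gave 0.42. Without summer animal 3, limma called the Atp5pb clone (2.03) and Atp5j2 on MA07 (1.64). The inhibitor Atpif1, which blocks ATP hydrolysis by the head, gave 0.13 and 0.55 with the same clone on MA08 and MA11, the MA11 spot being among the dimmest (signal percentile 6.50). The assembly factors Atpaf1 and Atpaf2, which bind beta and alpha before the head is built, gave 0.20 for the first, and 0.07 and -0.31 for the second.

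**Figure D4:**
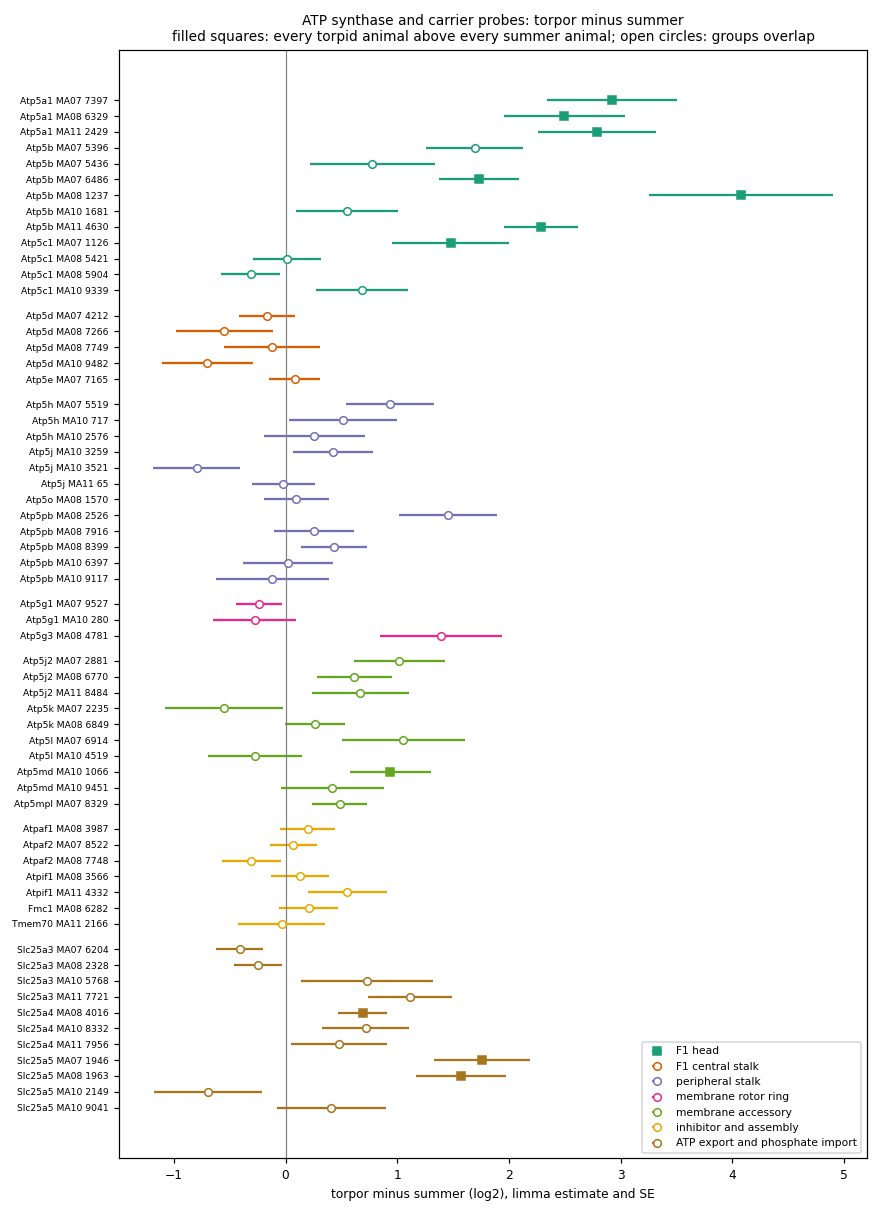
Torpor minus summer (log2, x axis, limma estimate with SE) for probes of the head, the other ATP synthase lists and the carriers, grouped by role. Filled squares mark probes with every torpid animal above every summer animal, as for 4.37% of all tested probes. They are 7 of 13 head probes, 1 of 37 probes of the other synthase lists and 3 of 11 carrier probes.

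Carriers that feed the head with ADP and phosphate were read by 11 probes of 3 genes. Limma called 0 of them, beside 0.309% of all probes. An unadjusted p under 0.05 was reached by 4, all higher, where 6.39% of all probes stood. The groups separated with torpor higher for 3 of the 11, beside 4.37% of all. Slc25a5, an ADP and ATP exchanger, gave 1.76 ± 0.43 (SE) on MA07 and 1.57 ± 0.40 (SE) on MA08, with torpid animals above all summer animals on both, and -0.69 and 0.41 on MA10. Its MA07 levels were 2.65 ± 0.14 in torpor (SD, n = 5) and 0.89 ± 1.23 in summer (SD, n = 3). Slc25a4, the exchanger typical of muscle, gave 0.69, 0.72 and 0.48. Slc25a3, the phosphate carrier, gave -0.41, -0.25, 0.73 and 1.12 on MA07, MA08, MA10 and MA11.

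The vacuolar proton pump has a head related to that of ATP synthase but works in acid compartments, where it spends ATP. Its 12 probes, among them 4 of Atp6v1a and 5 of Atp6v1b2 (the counterparts of beta and alpha), had a median of -0.01 and ran from -0.72 to 0.83. With limma 0 of them were called, beside 0.309% of all probes. None had an unadjusted p under 0.05, beside 6.39% of all probes higher and 5.18% lower. The brightest of these probes lay at signal percentile 81.4, so the 2 kinds of head were not matched for brightness. A test of the difference between them was not made.

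Markers of other cell types were compared because muscle is also rich in ATP synthase. Skeletal muscle markers, 12 probes of 10 genes, had 9 negative values, and their summed intensity was 94.98 to 111 in torpid animals and 144 to 178 in summer animals, in units of the column median. Most of that sum came from 1 Tnnc2 probe on MA11 (6.33 in torpor and 7.10 in summer on the log2 scale, difference -0.77 ± 0.22, SE). Heart markers, 4 probes, were all negative and summed to 2.60 to 3.22 in torpor and 3.41 to 3.84 in summer. Empty values were left out of these sums and occurred only in torpid animals. They were values of Des (MA11) and Ckm (MA10) among the muscle markers and Tnni3 (MA11) among the heart markers. The heart sum of 2.60, in torpid animal 1, lacks that Tnni3 value. White adipocyte markers, 16 probes of 7 genes, summed to 34.6 to 56.5 in torpor and 73.9 to 101 in summer, although 5 of the 16 were positive and their median difference was -0.12. Separated groups, with every torpid animal below every summer animal, were seen with 2 of them, both on MA10. An Agt probe (5804) averaged 2.33 in torpor and 4.33 in summer on the log2 scale, and a Psat1 probe (3685) averaged 3.68 in torpor and 5.26 in summer. These MA10 probes of Agt and Psat1 made up most of the white adipocyte sum in summer. The other Agt probes gave differences from -0.80 to 0.01, and the other Psat1 probes -0.15 and 0.11. Lep gave -0.09 ± 0.25 (SE). The summed intensities of the 3 lists were lower in torpor. Limma called 0 of the 32 probes, beside 0.309% of all probes. At an unadjusted p under 0.05 there were 1 higher and 3 lower, beside 6.39% and 5.18% of all probes. The brightest probes as a class also stood lower in torpor on MA11 (median -0.50) and on MA10 (median -0.24). Whether the cell content of the tissue differed was not tested.

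Profiles closest to that of the head were sought over the 8 animals among 11211 genes, as the root mean square difference (RMS, log2) from the mean of the brightest Atp5a1, Atp5b and Atp5c1 probes. That profile stood at -1.58, -4.81 and -2.09 in summer animals 1, 2 and 3 relative to the torpor mean. The 10 closest genes were Rell2 (RMS 0.27), Uqcrb (0.28), Fndc3a (0.39), Ptp4a1 (0.41), Anxa5 (0.42), Itprid2 (0.45), Cycs (0.46), Laptm4a (0.50), Tpp2 (0.54) and Suv39h2 (0.55), against a median of 1.62 over all ranked genes. Uqcrb is a subunit of respiratory complex III, and Cycs is cytochrome c, which carries electrons from that complex to cytochrome oxidase. Uqcrb on MA07 read 4.50, 4.62, 4.49, 4.48 and 4.12 in torpor, against 3.25, -0.14 and 1.87 in summer.

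The other 8 genes include a protein tyrosine phosphatase (Ptp4a1), an annexin (Anxa5), a lysosomal membrane protein (Laptm4a), a peptidase (Tpp2) and a histone methyltransferase (Suv39h2). All 10 probes lay above signal percentile 97, and all had summer animal 2 lowest. Neither trait is independent of the choice by closeness. The profile itself came from the brightest member probes and was lowest in summer animal 2. The Atp5a1 probes on MA08 and MA11, which were not part of the profile, lay at 0.30 and 0.29 from it. Among the remaining Atp5b probes the distance ran from 0.68 on MA11 to 1.64 on MA10, a distance as large as that of a flat line (1.64). The remaining Atp5c1 probes lay at 1.24 on MA10, and at 1.66 and 1.75 on MA08, the last 2 farther than a flat line.

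**Figure D5:**
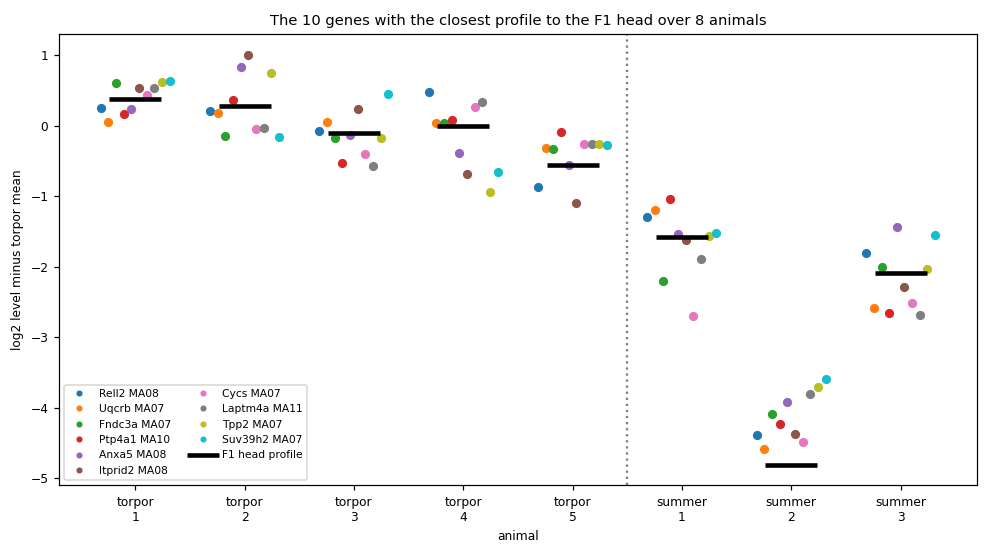
Level minus torpor mean (log2, y axis) in each of the 8 animals (x axis) for the 10 genes with the closest profile, coloured points, and for the mean of the brightest Atp5a1, Atp5b and Atp5c1 probes, black bars. All of them lie lowest in summer animal 2, where the head profile stands at -4.81, a trait that the choice by closeness favours.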

How the data were processed

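Membrane values were deposited by the authors as linear spot intensity, already scaled so that every column has a median of 1 with empty cells ranked lowest (3.45% of cells were empty). How the images were read and background was treated is not given in the sources used here. The 44 columns were taken to log2, duplicates of a split RNA were averaged, and limma 3.58.1 (R 4.3.3; lmFit, then eBayes, two-sided) was run on each membrane separately. A probe was tested if at least 2 animals per group had a value, with Benjamini-Hochberg adjustment over the 37848 tested probes of all 4 membranes. A simulation checked that the fit returns planted differences on average. Its noise had the same SD in both groups, so it does not cover the wider summer spread of the head probes. Replicates are animals by the labels.

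Gene symbols came from the platform annotation of the mouse probes, which can be old. Of 38400 probes 25070 have 1 symbol, 941 several and 12389 none, and only those with 1 were named. The b subunit, listed as Atp5f1, was found under its current symbol, Atp5pb, after the files were read. The squirrel RefSeq annotation holds 1 entry each for the current symbols of the head genes. No sequence of a probe, promoter or protein was used, and no genome position is given.

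The members and gene lists were chosen with earlier results of these data known. Named genes were all members, the genes of the synthase, carrier and vacuolar lists, the cell type markers and the 10 genes with the closest profile, 1 probe per gene with values in all 8 animals. Alternatives covered scaling, a floor at the 10th percentile, dim and incomplete probes, the variance model, array weights, single duplicates, the adjustment, a replicate block and each animal left out. The labels do not say that torpid and summer animals with the same number are paired. Deviations of same-numbered animals from their group means correlated at 0.02, 0.0073 and 0.0076. For animals with different numbers the correlations ran from -0.017 to 0.0093. A batch shared by number was not tested.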

Additional observations from a re-analysis of the deposited data

How the results depend on the processing

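The number of head probes called was 1 and became 4 with quantile normalization, 0 with cyclic loess, 4 among probes above the membrane median, 2 among probes with values in all 8 animals, 2 with an intensity trend, 4 with first duplicates, and 3 with the first duplicate of summer animal 2 (chosen after seeing the data). Leaving out 1 animal gave 0 to 6: 0 without torpid animal 2, and 4, 3 and 6 without summer animal 1, 2 and 3. The median head difference was 0.91 with cyclic loess and 1.24 to 2.22 with 1 animal left out. Other synthase probes called numbered 0 to 2 with 1 animal left out, the 2 without summer animal 3. Over all probes the count of 117 became 65 with cyclic loess, 76 with a floor, 280 above the membrane median, 219 with a trend, 176 and 38 with first and second duplicates and 63 with the second duplicate of summer animal 2. Leaving out 1 animal gave 17 to 347 (45, 17, 50 and 60 without torpid animals 1 to 4, and 347 without summer animal 1). The replicate block, whose numbers are not known to pair animals, called 0 head probes and 32 of all probes. The causes were not tested. The 1 called head probe, Atp5b on MA11, kept a positive value throughout (1.87 to 2.56). Without signal over background, a limit for the dim Atp5c1 spots could not be set.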

Other observations

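Placed among all 37848 tested probes by the size of the difference, counted from the largest positive one downwards, the head probes ran from place 4 (Atp5b on MA08) to place 29703 (Atp5c1 on MA08). The Atp5a1 probes took places 21, 31 and 51, and the other Atp5b probes places 71 to 4032. The Atp5c1 probe at place 29703 is a second spot of a clone whose first spot, on the same membrane, took place 18443, and their differences were -0.31 and 0.01.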
